A study of Homo sapiens with 18 samples.

Results

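The galectin genes LGALS1, LGALS2, LGALS3, LGALS4, LGALS8 and LGALS9 were followed across RNA sequencing libraries of human colorectal cancer cells. They were taken by symbol from a table of 60642 genes, and all 6 were found and passed the filter on low counts in every fit. The study used the HT-29 iZEB1 line, in which doxycycline (DOX) induces ZEB1, a zinc-finger repressor of epithelial genes in the epithelial-mesenchymal transition, and the SW620 line, which received no inducer. RepSox is a small-molecule inhibitor of the TGF-β type I receptor ALK5. There were 6 groups of 3 libraries. HT-29 iZEB1 cells carried the inducible ZEB1 system in all 12 libraries and received the vehicle DMSO alone, DOX with DMSO, RepSox alone, or DOX with RepSox. SW620 cells received DMSO or RepSox (6 libraries). No cells without the inducible system received DOX, so effects of DOX itself and of induced ZEB1 cannot be told apart. The RepSox dose was 10 µM over 24 h. The DOX dose was 1 µg per ml, over 24 h by the treatment protocol in the labels and over 48 h by the design text. The promoter that drives ZEB1 and the number of clones behind the line are not stated in the sources used here. Nor do the labels say whether replicates are separate cultures, so a p-value here covers the spread among these libraries alone, and that spread may be technical.

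Galectins are soluble lectins that bind β-galactoside sugars on glycoproteins and glycolipids. They are made in the cytosol, leave the cell without a signal peptide, and crosslink glycans at the cell surface and in the extracellular matrix, or mark glycans exposed on damaged endosomes and lysosomes inside the cell. By architecture, LGALS1 and LGALS2 encode prototype galectins (a single carbohydrate-binding domain that can form dimers), LGALS3 encodes the chimera galectin (that domain with a long flexible tail), and LGALS4, LGALS8 and LGALS9 encode tandem-repeat galectins (different binding domains on the same chain). LGALS4 and LGALS2 are known as genes of the gut epithelium and LGALS1 as a gene of stromal and mesenchymal cells.

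The members lie on 5 chromosomes (GENCODE 29, GRCh38), and each is annotated as protein-coding. LGALS1 (chr22, 37675608 to 37679806, plus strand) and LGALS2 (chr22, 37570246 to 37582616, minus strand) are neighbours, 93.0 kb apart. LGALS3 is at chr14, 55124110 to 55145413, plus strand. LGALS4 is at chr19, 38801671 to 38813364, minus strand. LGALS8 is at chr1, 236518000 to 236552981, plus strand, and LGALS9 at chr17, 27629798 to 27649560, plus strand. Exons of LGALS8 overlap the opposite-strand genes HEATR1, LGALS8-AS1 and AL359921.1. The strand setting of the counting is unstated in the sources used here, so reads of these genes cannot be told apart there. Exons of LGALS9 overlap AC015688.4 on the same strand, and AC015688.4 had 0 counts in each library.

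ZEB1 is known to bind the E-box CACCTG, whose reverse complement is CAGGTG, and this motif was looked for on both strands in the 250 bases before the starts listed by RefSeq (GRCh38.p14). Of the 6 members, 5 had an entry, with 7 windows in all, and 2 windows held the motif, which 17.5% of all 35116 windows of that length also held. The sites are shown because the motif is that of the induced factor. They lie 175 bases before the LGALS4 start (chr19:38813103-38813132, minus strand) and 222 bases before 1 of 3 LGALS8 starts (chr1:236523364-236523393, plus strand). Each is printed 5′ to 3′ on the gene's strand with the E-box in capitals.
LGALS4: ggggaggggaccCAGGTGatttgggtcctg
LGALS8: cccccaccgtttCACCTGcatacagaggtg
A match is a description of the letters, not evidence of binding.

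Library totals ran from 36.5 to 39.8 M counts. Levels are normalised counts (CPM) on 1 scale for all 18 libraries, given as mean ± SD of 3 libraries. The induced gene, ZEB1, had 8.55 ± 1.59 CPM with DMSO alone against 378 ± 7.05 after DOX in DMSO. It had 5.38 ± 0.347 CPM with RepSox alone against 16 ± 1.39 after DOX in RepSox. In SW620 it stood at 21.5 ± 2.54 CPM with DMSO and 23.7 ± 0.827 with RepSox. Of 11 colon epithelium markers, 7 or 8 exceeded 1 CPM in each group, with sums of 4437 to 10921 CPM over the libraries. The lowest sums were those with DOX and DMSO (4437 to 4866 CPM, against 8745 to 9904 with DMSO alone). KRT8 held much of these sums, at 2918 and 5662 CPM (means). The median marker gave another order, with 159 CPM with DMSO alone and 102 with DOX and DMSO. It stood at 65.6 CPM with RepSox alone, 74.4 with DOX and RepSox, and in SW620 9.97 with DMSO and 18.2 with RepSox. RepSox without DOX lowered 4 of 11 markers and raised 0, where 25.3% of all genes were called (median log2 -0.29). The intestinal transcription factor genes CDX1 and CDX2 stayed below 1 CPM in each HT-29 iZEB1 group, and in SW620 with DMSO KRT20 stood at 0.187 CPM and CDX1 had 0 counts. Fibroblast markers summed to at most 1.47 CPM in HT-29 iZEB1 and 12.8 CPM in SW620, with COL1A2 at 0 counts throughout. The leukocyte markers summed to at most 9.90 CPM and the endothelial markers to at most 5.64 CPM in any library.

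The lines differed in which galectin was most abundant. Between genes, levels were compared as CPM per kilobase of exon. In HT-29 iZEB1 with DMSO alone, LGALS4 led with 178 ± 8.49 CPM per kb, 72.4% of the sum over the 6 genes, followed by LGALS3 with 37.8 ± 0.259 (15.4%) and LGALS1 with 12.6 ± 2 (5.11%). With DOX and DMSO, LGALS1 stood second at 45.2 ± 5.58 CPM per kb (19.1%), above LGALS3 at 36.8 ± 2.65, and LGALS4 made up 57.6%. In SW620 with DMSO the order was led by LGALS1 at 272 ± 13.2 CPM per kb (77.5%) and LGALS3 at 73.1 ± 3.32 (20.8%), while LGALS4 was last with 0.0264%. LGALS8 and LGALS9 stood next to each other, with overlapping libraries, in every HT-29 iZEB1 group except RepSox alone, where LGALS9 overlapped LGALS1. By their means, the first and second genes in each group held their places when the longest coding transcript was used as the length. With DOX and DMSO the LGALS1 libraries (82.0 to 101 CPM per kb) then overlapped those of LGALS3 (72.3 to 83.2). The order of LGALS9 with LGALS8 or LGALS1 changed in 2 groups.

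**Figure D1:**
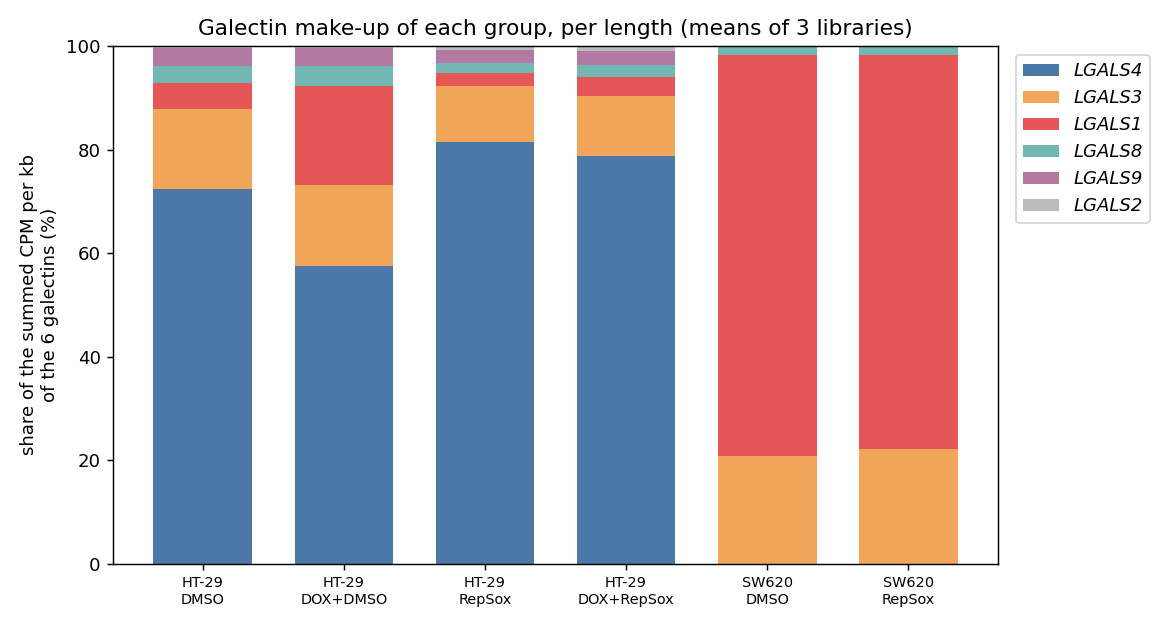
Stacked bars give, for each of the 6 groups, the share (%) of the summed CPM per kb of the 6 galectins that each gene held, from means of 3 libraries. LGALS4 holds 57.6% to 81.5% in the HT-29 iZEB1 groups, and LGALS1 holds 76.1% to 77.5% in SW620.

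LGALS1 encodes galectin-1, a secreted dimer that binds integrins, laminins and other surface and matrix glycoproteins. In HT-29 iZEB1 it stood at 15.7, 14.4 and 11.4 CPM with DMSO alone and at 45.9, 56.7 and 46.2 CPM with DOX and DMSO. With RepSox alone it stood at 6.20, 6.27 and 6.28 CPM, and with DOX and RepSox at 7.68, 9.05 and 8.93 CPM. SW620 libraries had 312, 301 and 284 CPM with DMSO and 233, 245 and 248 CPM with RepSox. All 6 groups were separate, and every SW620 library lay above every HT-29 iZEB1 library. Within HT-29 iZEB1, DOX with DMSO was highest and both RepSox groups lay lowest. DOX raised LGALS1 in DMSO 3.60-fold (log2 fold change 1.85, 95% interval 1.62 to 2.08, SE 0.11, adjusted p = 1.61e-10). RepSox lowered it 2.23-fold without DOX (log2 -1.16, SE 0.12, adjusted p = 1.64e-06) and 5.84-fold with DOX (log2 -2.55, SE 0.11, adjusted p = 3.26e-12). The RepSox effect was larger with DOX, as tested by the interaction of the agents (log2 -1.39, 95% interval -1.74 to -1.04, SE 0.17, adjusted p = 5.95e-06). With DOX and RepSox together LGALS1 was 1.62-fold lower than with neither (log2 -0.70, adjusted p = 0.00022). In bulk RNA, a change in the number of cells with the transcript and a change in RNA per cell cannot be told apart.

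LGALS2 encodes galectin-2, a prototype galectin of the gut lining, and was the member with the fewest counts in HT-29 iZEB1. Its libraries had 1.36, 0.650 and 0.676 CPM with DMSO alone and 0.787, 0.590 and 0.490 with DOX and DMSO. They had 1.92, 1.5 and 1.36 CPM with RepSox alone and 2.09, 1.32 and 2.09 with DOX and RepSox. The ranges with DMSO alone and with DOX and DMSO overlapped, and all 6 RepSox libraries lay above all 3 libraries with DOX and DMSO. With DOX present, RepSox raised LGALS2 2.92-fold (log2 1.55, 95% interval 0.91 to 2.18, SE 0.30, adjusted p = 0.000298). Without DOX the difference had the value log2 0.82 (95% interval 0.19 to 1.45, adjusted p = 0.0513) and did not pass the test. It was called without replicate 1 of DMSO alone, the highest library of that group (log2 1.25, adjusted p = 0.00867). SW620 had 0.434, 0.462 and 0.302 CPM with DMSO and 0.337, 0.308 and 0.316 with RepSox, which overlapped.

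LGALS3 encodes galectin-3, the chimera galectin, which is found in the nucleus and cytosol and outside the cell and forms lattices with branched glycans. It stood at 91.4, 90.3 and 90.3 CPM with DMSO alone and 86.8, 95.3 and 82.9 with DOX and DMSO. With RepSox alone it stood at 61.9, 55.3 and 63.8 CPM, and with DOX and RepSox at 59.0, 62.2 and 56.9. The groups fell into a higher pair without RepSox and a lower pair with it, and within each pair the libraries overlapped. RepSox lowered LGALS3 1.51-fold without DOX (log2 -0.60, SE 0.07, adjusted p = 5.33e-06) and 1.5-fold with DOX (log2 -0.58, SE 0.07, adjusted p = 1e-06). The difference between these effects was 0.01 on the log2 scale (95% interval -0.19 to 0.22). The DOX difference in DMSO was log2 -0.03 (95% interval -0.18 to 0.11, adjusted p = 0.737).

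LGALS4 encodes galectin-4, a tandem-repeat galectin of the intestinal epithelium that takes part in apical sorting through sulfated glycolipids. It had 487, 482 and 446 CPM with DMSO alone and 336, 400 and 345 with DOX and DMSO. With RepSox alone it had 526, 512 and 481 CPM and with DOX and RepSox 498, 430 and 403. The libraries with DOX and DMSO lay below those of the other 3 HT-29 iZEB1 groups, which overlapped one another. DOX in DMSO lowered LGALS4 1.30-fold (log2 -0.38, 95% interval -0.55 to -0.22, SE 0.08, adjusted p = 0.000734). Among the colon epithelium markers, 7 of 11 fell and 1 rose in this comparison, where 40.4% of all genes were called (median log2 -0.95, against 0.00 over all genes), and their part in the LGALS4 value was not tested. RepSox with DOX raised it 1.22-fold (log2 0.29, SE 0.08, adjusted p = 0.00514), and DOX with RepSox against neither differed by log2 -0.10 (95% interval -0.26 to 0.07, adjusted p = 0.417). The RepSox difference without DOX was log2 0.09 (95% interval -0.07 to 0.26). In SW620 LGALS4 was near the limit of detection, with 29 counts over the 3 DMSO libraries and 27 counts over the 3 RepSox libraries.

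LGALS8 encodes galectin-8, a tandem-repeat galectin that marks ruptured endosomes and bacteria-containing vacuoles and recruits the autophagy receptor CALCOCO2. It stood at 77.2, 78.7 and 81.5 CPM with DMSO alone and 85.2, 86.8 and 94.6 with DOX and DMSO. With RepSox alone it stood at 46.8, 41.8 and 45.3 CPM and with DOX and RepSox at 45.8, 50.2 and 49.3. Within HT-29 iZEB1, every library with RepSox lay below every library without it, and the ranges of both RepSox groups overlapped. RepSox lowered LGALS8 1.78-fold without DOX (log2 -0.83, SE 0.07, adjusted p = 6.19e-08) and 1.85-fold with DOX (log2 -0.89, SE 0.07, adjusted p = 2.48e-09). The difference between these effects was log2 -0.05 (95% interval -0.25 to 0.14). DOX in DMSO raised it 1.13-fold (log2 0.17, SE 0.06, adjusted p = 0.0413). That call was lost in 5 of 12 alternatives, among them without replicate 1 (adjusted p = 0.133), 2 (0.106) or 3 (0.0508) of DMSO alone and without replicate 3 of DOX and DMSO (0.201). HEATR1, on the opposite strand, moved the other way with RepSox, from 110 to 148 CPM without DOX and from 86.6 to 153 CPM with DOX, and its part in the LGALS8 values was not tested. LGALS8-AS1 had at most 13 counts in any library and AL359921.1 at most 10.

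LGALS9 encodes galectin-9, a tandem-repeat galectin induced by interferons and known as a ligand of the T cell receptor TIM-3 (HAVCR2). It stood at 42.7, 47.1 and 53.9 CPM with DMSO alone, and at 38.4, 72.3 and 35.8 with DOX and DMSO. With RepSox alone it stood at 33.2, 30.8 and 38.3 CPM, and with DOX and RepSox at 37.9, 29.9 and 27.6. Replicate 2 of DOX and DMSO was the highest of all libraries, and the other 2 of its group lay below the lowest library with DMSO alone. Over all libraries the DOX difference in DMSO was log2 0.03 (95% interval -0.36 to 0.43, adjusted p = 0.908). Without that replicate it was log2 -0.36 (adjusted p = 0.0174). RepSox with DOX lowered LGALS9 1.55-fold (log2 -0.63, 95% interval -1.03 to -0.23, adjusted p = 0.00994), although the groups overlapped. The call was lost without that replicate (log2 -0.23, adjusted p = 0.107) and with DESeq2 (adjusted p = 0.059). RepSox without DOX gave log2 -0.50 (95% interval -0.90 to -0.09, adjusted p = 0.066), which did not pass although these groups did not overlap. In a fit of these 2 groups alone it passed (log2 -0.49, adjusted p = 0.000124).

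**Figure D2:**
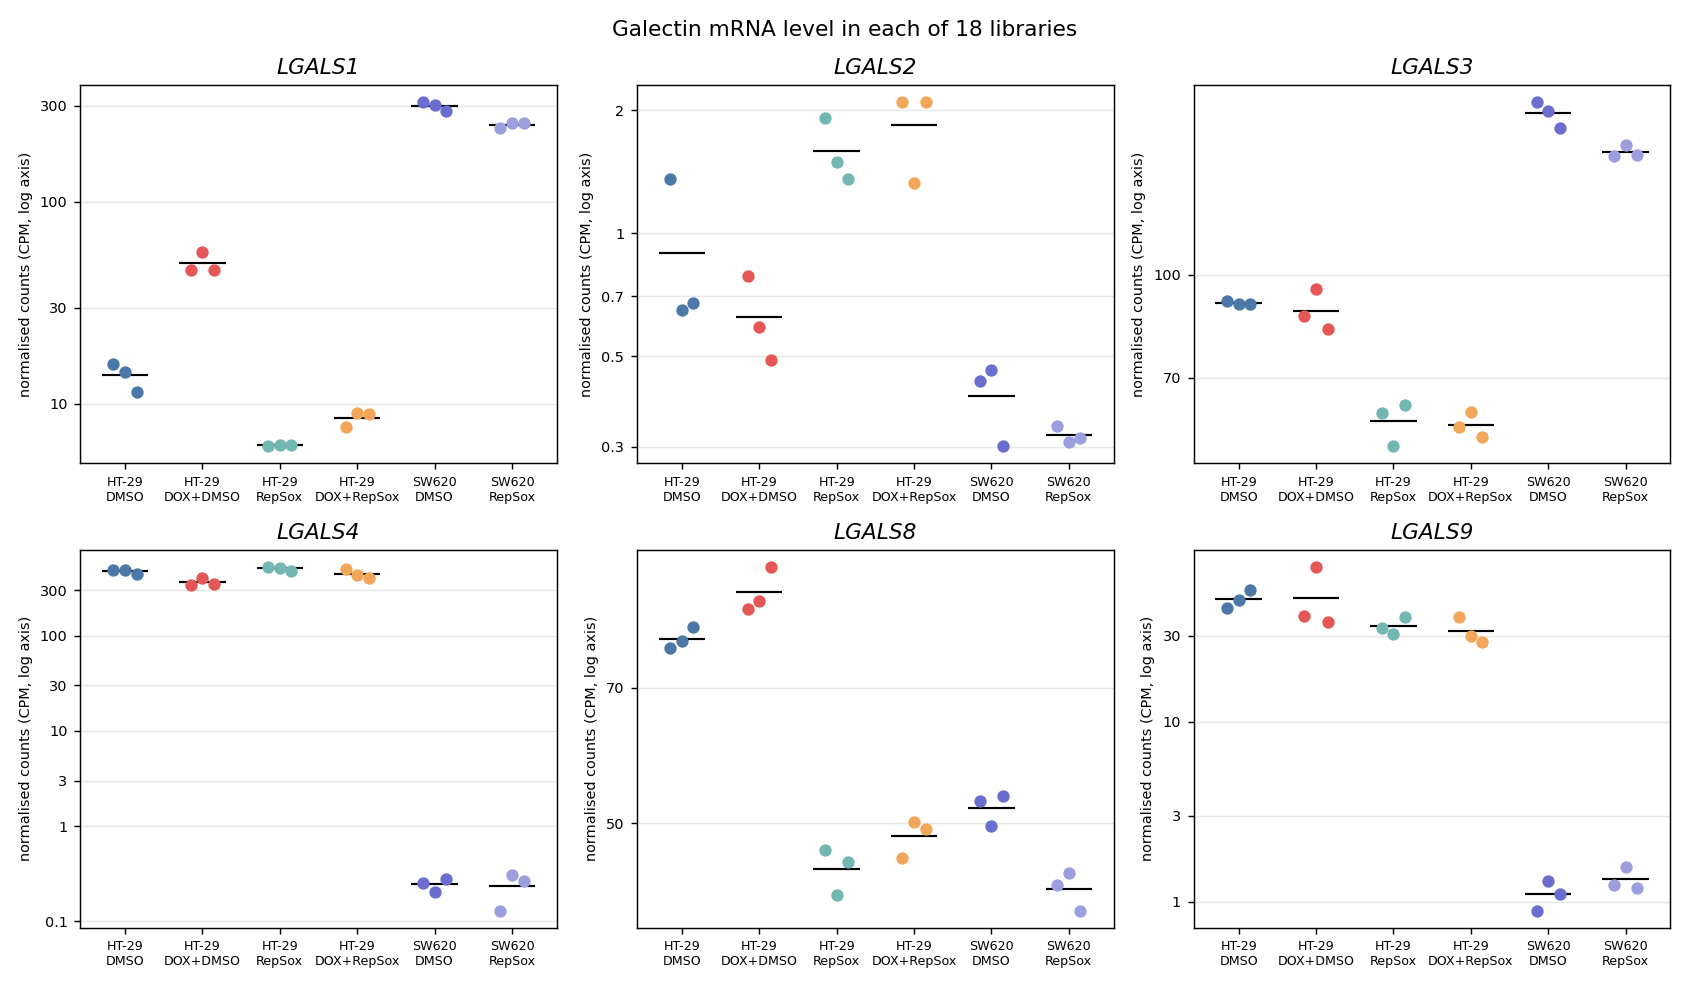
Each panel gives 1 galectin on its own log axis (CPM), with 1 point for each of 3 libraries in each of the 6 groups and a bar at the group mean. LGALS1 is separate in all 6 groups, LGALS3 and LGALS8 are lower in every RepSox group of HT-29 iZEB1, and LGALS9 has 1 library at 72.3 CPM among those with DOX and DMSO.

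The high library also stood apart in a chi-square summed over genes, which does not say how many genes differed. Its chi-square over degrees of freedom was 32.6 against replicate 1 and 42.6 against replicate 3, which gave 8.95 with each other. Pairs in the other groups gave 3.93 to 24.1. The library was examined with 20 interferon-stimulated genes (IFIT1, ISG15, MX1, OAS1 and others), a list added after the values were seen. In replicate 2 of DOX and DMSO these genes stood on average 0.54 above their group mean in log2 CPM, against -0.21 and -0.34 in replicates 1 and 3. LGALS9 stood 0.64 above its group mean there and LGALS3BP, a secreted glycoprotein that galectins bind, stood 0.40 above. The library with the highest interferon score was also the one with the highest LGALS9 in 4 of 4 HT-29 iZEB1 groups and in 0 of 2 SW620 groups. The 4 HT-29 iZEB1 groups include DOX and DMSO, whose values prompted the list, so that match tests nothing. With only 3 libraries in a group, a match can also arise by chance. The full order of the 3 libraries was shared in 2 of those 4 groups, and the highest LGALS3BP library was the highest interferon library in 2 of 4. Of the 20 genes, 16 fell with RepSox without DOX (median log2 -0.72, against -0.01 over all genes, of which 12.8% were called lower) and 15 fell with RepSox with DOX (median log2 -0.66, where 25.5% of all genes were called lower). DOX in DMSO raised 6 of the 20 and lowered 0 (median log2 0.23), where 40.4% of all genes were called. LGALS9 differed there by log2 0.03. In SW620 RepSox raised 1 and lowered 8 of 17 (median log2 -0.25), where 19.5% of all genes were called. LGALS9, at 1.10 CPM with DMSO and 1.33 with RepSox, differed there by log2 0.27 and was not called. The part of the interferon-stimulated genes' differences in the LGALS9 values was not tested.

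**Figure D3:**
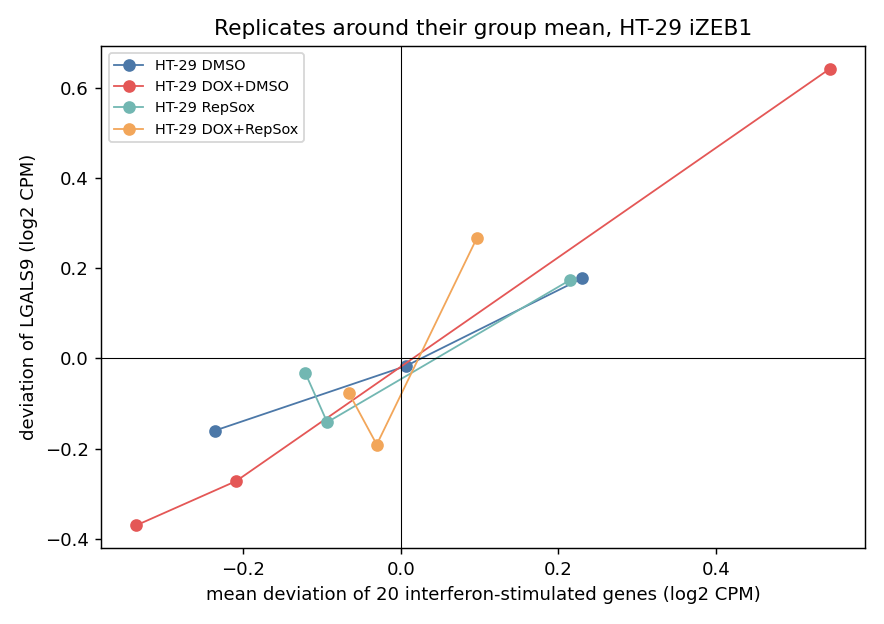
Points are the 12 HT-29 iZEB1 libraries, with the mean deviation of 20 interferon-stimulated genes from their group mean on the x axis and the deviation of LGALS9 on the y axis (both log2 CPM). Lines join the 3 libraries of a group, and the point at 0.54 and 0.64 is replicate 2 of DOX and DMSO.

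Counted over the 6 galectins, DOX in DMSO raised LGALS1 and LGALS8 and lowered LGALS4, so that 3 of 6 were called, where 40.4% of all genes tested were called. RepSox without DOX lowered LGALS1, LGALS3 and LGALS8, 3 of 6, where 25.3% of all genes were called and 12.8% were called lower. RepSox with DOX changed all 6, with LGALS2 and LGALS4 higher and the other 4 lower, where 52.2% of all genes were called. With 1 library left out, the count ran from 2 to 4 for DOX in DMSO and from 5 to 6 for RepSox with DOX. DESeq2 called 5 for RepSox with DOX. Against neither agent, DOX with RepSox gave 5 of 6 calls (26.2% of all genes), with LGALS2 higher 2.04-fold and LGALS1, LGALS3, LGALS8 and LGALS9 lower 1.51-fold to 1.64-fold. The calls of LGALS2 and LGALS9 in this comparison were each lost in several alternatives, and the count was 3 without replicate 2 or 3 of DMSO alone or replicate 3 of DOX and RepSox. The interaction called 1 of 6, LGALS1 (22.6% of all genes). These comparisons share groups, so their counts are not independent of each other.

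With RepSox present, DOX gave no galectin call (0 of 6, with 0.477% of all genes called by edgeR's quasi-likelihood test). At an unadjusted p below 0.05 there were 2, LGALS1 (log2 0.46, 95% interval 0.19 to 0.72, adjusted p = 0.128) and LGALS4 (log2 -0.19, 95% interval -0.36 to -0.02, adjusted p = 0.3). DESeq2 called LGALS1 (adjusted p = 0.0403). Without replicate 1 of DOX and RepSox both were called (LGALS1 log2 0.53, adjusted p = 0.0188, and LGALS4 log2 -0.28, adjusted p = 0.0252), and the count over all genes went from 81 to 1670. ZEB1 itself was 2.98-fold higher with DOX in RepSox, against 44.3-fold in DMSO.

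**Figure D4:**
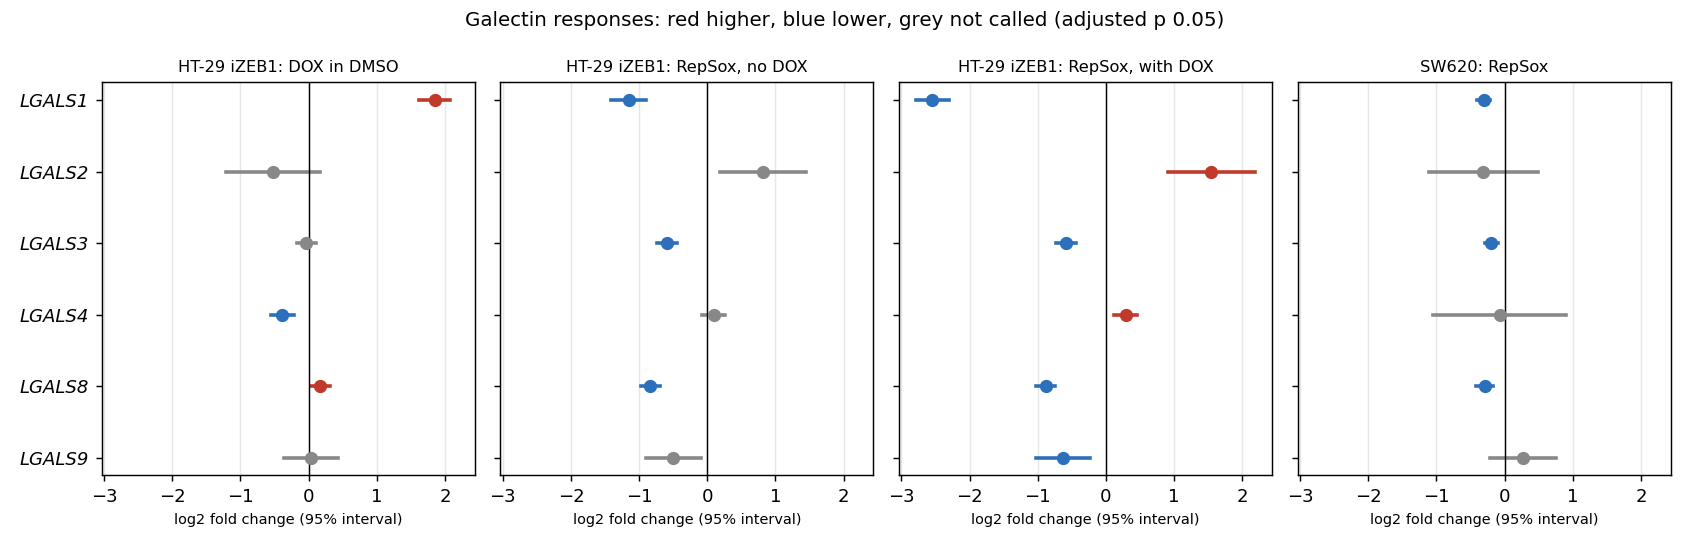
Log2 fold changes (x axis) with 95% intervals for the 6 galectins in 4 comparisons, red for higher, blue for lower and grey for not called at an adjusted p of 0.05. LGALS1 goes from 1.85 with DOX to -2.55 with RepSox in the presence of DOX, and LGALS3 and LGALS8 are blue in all 3 RepSox panels.

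In SW620, RepSox called 3 of 6 galectins, all lower, where 19.5% of all genes were called and 9.24% were called lower. LGALS1 fell 1.24-fold (log2 -0.31, 95% interval -0.40 to -0.21, adjusted p = 1.91e-05). LGALS3 had 182, 177 and 166 CPM with DMSO and 151, 157 and 151 with RepSox, a fall of 1.14-fold (log2 -0.19, adjusted p = 0.00342). LGALS8 had 52.8, 49.6 and 53.5 CPM with DMSO and 42.9, 44.2 and 40.2 with RepSox, a fall of 1.23-fold (log2 -0.29, adjusted p = 0.000588). For each of these 3 genes the treated and control libraries did not overlap. LGALS9 (0.893, 1.31 and 1.11 CPM against 1.24, 1.56 and 1.19), LGALS2 and LGALS4 overlapped and were not called.

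The size of the RepSox effect was then compared between SW620 and HT-29 iZEB1 without DOX, in a fit of all 18 libraries. The fall was smaller in SW620 for LGALS1 (difference of log2 fold changes 0.84, 95% interval 0.56 to 1.12, adjusted p = 0.000119), LGALS3 (0.39, 95% interval 0.21 to 0.57, adjusted p = 0.00348) and LGALS8 (0.53, 95% interval 0.35 to 0.72, adjusted p = 0.000179). These were 3 of 6, where 10.4% of all genes were called and 5.39% were called in this direction. The starting levels differed between the lines, with LGALS1 at 13.8 ± 2.2 CPM in HT-29 iZEB1 and 299 ± 14.6 CPM in SW620 with DMSO.

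The lines themselves differed in all 6 galectins without DOX, where 76.6% of all genes were called. LGALS1 was 21.6-fold higher in SW620 (log2 4.43, SE 0.10, adjusted p = 7.97e-23) and LGALS3 1.93-fold higher (log2 0.95, SE 0.06, adjusted p = 4.36e-13). LGALS4 was lower by log2 -10.89 (50108 counts over the 3 HT-29 iZEB1 libraries against 29, SE 0.14, adjusted p = 5.81e-27) and LGALS9 was 43.3-fold lower (log2 -5.44, SE 0.25, adjusted p = 4.5e-16). LGALS8 was 1.52-fold lower (log2 -0.61, adjusted p = 2.72e-09). LGALS2 was 2.23-fold lower (log2 -1.16, adjusted p = 0.00309), a call lost without replicate 1 of HT-29 iZEB1 with DMSO alone (log2 -0.76, adjusted p = 0.0543). Against HT-29 iZEB1 with DOX, 5 of 6 were called (78.5% of all genes), and the LGALS1 difference was 6.03-fold (log2 2.59, adjusted p = 4.3e-19). All 20 interferon-stimulated genes were lower in SW620 than in HT-29 iZEB1 without DOX (median log2 -3.82, against 0.06 over all genes). Of the calls over all genes, 52.4% were higher in SW620. The part of these 20 genes in the LGALS9 difference between lines was not tested. Cell line and culture cannot be told apart in this comparison.

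Of 11 other genes of the galectin family, 5 (CLC, GRIFIN, LGALS13, LGALS14 and LGALS16) had no count in any library, which allows up to 3 counts in a library by counting error. LGALSL, a galectin-like gene, was the only one with a group mean above 1 CPM. It stood at 12.7 ± 0.924 CPM with DMSO alone and 15.7 ± 0.601 with DOX and DMSO, a rise of log2 0.31 (adjusted p = 0.0063). In SW620 it rose with RepSox from 18.3 ± 0.307 to 24.9 ± 1.49 CPM (log2 0.44, adjusted p = 4.59e-05). LGALS9C, a near-identical copy of LGALS9 named here after its values were seen, had 13 counts over the 3 libraries of DMSO alone and 78 over those of RepSox alone. It had 19 counts over the libraries of DOX and DMSO and 50 over those of DOX and RepSox. Its counts and those of the copy LGALS9B (at most 10 in a library) are uncertain because reads can be shared with LGALS9.

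Glycoproteins that galectins bind were described by a list of 18 genes, 17 of them tested in HT-29 iZEB1. DOX in DMSO raised 7 and lowered 4, where 40.4% of all genes were called (median log2 0.09, against 0.00 over all genes). The laminin chains LAMB1 and LAMC1 rose 1.69-fold and 1.45-fold and the co-receptor NRP1 rose 1.85-fold. The adhesion molecule CEACAM5 fell 3.71-fold, the mucin MUC1 2.87-fold and the transferrin receptor TFRC 1.41-fold. RepSox with DOX raised 6 and lowered 6, where 52.2% of all genes were called (median log2 -0.09), with CEACAM5 higher from 1.39 to 15.2 CPM, TFRC higher from 529 to 993 CPM, and NRP1, LAMC1 and the integrin ITGB1 lower. RepSox without DOX raised 5 and lowered 2, where 25.3% of all genes were called (median log2 0.06). In SW620 RepSox raised 8 and lowered 1 of 16, where 19.5% of all genes were called (median log2 0.20, against -0.01 over all genes), with LAMC1 (1.51-fold), NRP1 (1.40-fold) and fibronectin FN1 (1.40-fold) higher and MUC1 lower (1.43-fold). LGALS3BP, present at 1064 ± 40.8 CPM with DMSO alone, was not called for either agent in HT-29 iZEB1 or for RepSox in SW620.

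Enzymes that build or modify the N-acetyllactosamine and branched glycans read by galectins formed a list of 17. Since ST6GAL1 and MGAT3 are among them, counts over the list give no direction for galectin ligands. DOX in DMSO raised 1, the I-branching enzyme GCNT2 (1.48-fold), and lowered 8, where 40.4% of all genes were called (median log2 -0.09). The poly-lactosamine enzymes B3GNT3 and B3GNT2 fell 2.92-fold and 1.57-fold, and the mucin branching enzyme GCNT3 fell 1.52-fold. RepSox with DOX raised 9 and lowered 4, where 52.2% of all genes were called (median log2 0.25, against -0.01 over all genes). Here GCNT3 rose 1.85-fold, B3GNT3 1.65-fold and the galactosyltransferase B4GALT2 1.57-fold, while GCNT2 fell 1.91-fold and MGAT1, which starts complex N-glycans, fell 1.39-fold. RepSox without DOX raised 5 and lowered 6, where 25.3% of all genes were called, and the median had the opposite sign (log2 -0.22). B3GNT3 fell there from 71.4 to 48.6 CPM (log2 -0.56, adjusted p = 9.14e-05), while GCNT3 rose from 711 to 894 CPM. In SW620 RepSox raised 5 and lowered 3 of 15, where 19.5% of all genes were called. B3GNT3 rose there from 71.8 to 98.8 CPM, and MGAT5, the branching enzyme of the galectin-3 lattice, from 501 to 630 CPM. GCNT1 fell 1.32-fold, GCNT2 1.28-fold and MGAT1 1.17-fold. In HT-29 iZEB1, MGAT5 means were also higher with RepSox, at 316 against 246 CPM without DOX and 330 against 259 CPM with DOX.

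The endolysosomal damage pathway downstream of LGALS8 and LGALS3 was described by 16 genes, 15 of them tested. DOX in DMSO raised 6 and lowered 2, where 40.4% of all genes were called (median log2 0.16), with the autophagy receptors OPTN (1.53-fold) and CALCOCO2 (1.38-fold) and the kinase ULK1 (1.52-fold) higher, and the lysosomal transcription factor TFEB (1.90-fold) and ATG16L1 (1.40-fold) lower. RepSox with DOX raised 2 and lowered 9, where 52.2% of all genes were called (median log2 -0.30, against -0.01 over all genes). OPTN fell 2.97-fold, ULK1 2.09-fold and CALCOCO2 1.58-fold, while ATG16L1 rose 1.68-fold. RepSox without DOX raised 1, ATG16L1, and lowered 7, among them OPTN (2.21-fold), where 25.3% of all genes were called (median log2 -0.22). In SW620 RepSox raised 1 of 15, ATG16L1, and lowered 1, OPTN, where 19.5% of all genes were called.

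Of the members, LGALS1 alone met the rule for a search of genes with a like pattern (at least 5 CPM in some HT-29 iZEB1 group and group means at least 2-fold apart). LGALS8 fell just short of it, with group means 1.99-fold apart. Over the 12 HT-29 iZEB1 libraries, the genes with the highest Pearson r of log2 CPM among 10531 were FBXO32 (0.988), TSPAN31 (0.987) and FAM114A1 (0.987). The libraries share the groups, so these values describe the pattern of groups. FBXO32 stood at 20.8, 53.6, 13.8 and 14.9 CPM (means) with DMSO alone, DOX and DMSO, RepSox alone, and DOX and RepSox, but at 1.18 CPM in SW620 with DMSO, where LGALS1 was highest. By Spearman's rho the leading genes were MYO15B, OS9 and TNS2, and 0 of 3 were shared with those by Pearson r.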

How the data were processed

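The deposited table holds whole-number read counts per gene, not normalised, for 18 libraries. Per the submitters' processing notes the authors used HISAT2 2.2.0 on GRCh38.p13, featureCounts 2.0.0, FastQC 0.11.9 and DESeq2 1.34.0. Their settings, the strand option and the annotation behind the counts were not given in the sources used here. GENCODE 29 was used here for coordinates and gene lengths only. Per the labels' protocols, RNA was treated with DNase, and mRNA libraries were sequenced on a BGISEQ-500.

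From these counts edgeR 4.0.16 (R 4.3.3) was run as a quasi-likelihood test (glmQLFit, glmQLFTest) after TMM scaling and filterByExpr (minimum count 10). P-values were adjusted by Benjamini-Hochberg across every gene in the fit, and genes below 0.05 were called. Fits held the 12 HT-29 iZEB1 libraries (16978 genes), the 6 SW620 libraries (17147 genes) or all 18 (19107 genes, for comparisons between lines). SE is the unshrunken log2 fold change over the square root of F, and 95% intervals use the matching t quantile. Library totals of 36.5 to 39.8 M counts set the counting precision, and replicates stood further apart than counting error gives (3.93 to 42.6 times, as chi-square over its degrees of freedom). Log2 CPM used a prior count of 2.

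Groups come from the labels. The 6 members and the gene lists were chosen with earlier results of these data known. Named genes are the members, ZEB1, other family genes with at least 1 CPM, and up to 3 called genes in each direction per list with at least 5 CPM. Alternatives were DESeq2 1.42.0, other scalings, no filter, a replicate block, other sets of libraries, each library left out, another gene length and Spearman's rho.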

Additional observations from a re-analysis of the deposited data

Results flagged for a closer look

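The effect of RepSox on LGALS1 differed between HT-29 iZEB1 cells with and without DOX, by a test of the difference itself (log2 -1.39, adjusted p = 5.95e-06). With DOX, ZEB1 also stood lower in RepSox (16 CPM) than in DMSO (378 CPM), and its part in this difference was not tested. The effect of RepSox also differed between SW620 and HT-29 iZEB1 without DOX for LGALS1 (difference of log2 fold changes 0.84), LGALS3 (0.39) and LGALS8 (0.53). For these 3 genes RepSox lowered the level in both lines, and the fall was smaller in SW620.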

How the results depend on the processing

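For DOX in RepSox, 81 genes and 0 galectins were called, against 264 genes and 1 galectin with DESeq2 and 584 genes and 1 galectin with no low-count filter. With 1 library left out the count ran from 27 to 1670 genes and from 0 to 2 galectins. For DOX with RepSox against neither, leaving out 1 library gave 3 to 5 galectins, against 5. RepSox without DOX called 5 galectins with no filter and in a fit of its own groups alone, against 3, with LGALS2 and LGALS9 added in both. RepSox in SW620 called 2019 genes in a fit of all 18 libraries, against 3338, and the difference between lines 3016 genes in a fit of its own groups, against 1982. The cause was not tested in these cases.

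Changes of direction were seen only in values that were not called in the main analysis. With library totals in place of TMM, LGALS3 gave log2 0.042 for DOX in DMSO, 0.0019 for DOX in RepSox and -0.040 for the interaction. With 1 library left out, LGALS3 ran from -0.092 to 0.011 for DOX in DMSO, from -0.081 to 0.018 for DOX in RepSox and from -0.046 to 0.072 for the interaction. LGALS9 ran from -0.36 to 0.21 for DOX in DMSO and from -0.31 to 0.26 for the interaction. LGALS4 ran from -0.33 to 0.21 for RepSox in SW620 and from -0.42 to 0.12 for the difference between lines, where few counts limit it. Library totals moved the median of all genes by 0.12 for SW620 against HT-29 without DOX and by under 0.1 elsewhere, and no galectin call changed.

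The replicate numbers gave no clear pairing: correlations of same-numbered libraries ran from -0.14 to 0.10, and not every library correlated best with its own number. In most HT-29 iZEB1 pairs of groups the same-numbered mean was slightly higher (0.053 against -0.026 for DMSO alone with DOX and DMSO). It was lower for DOX and DMSO with DOX and RepSox (-0.058 against 0.029), so a weak pairing was not excluded. With the replicate block, each comparison within HT-29 iZEB1 called more genes, such as DOX in DMSO with 6955 against 6853. RepSox in SW620 called fewer (2848 against 3338), as did the comparisons between lines. LGALS2 was gained for RepSox without DOX (log2 0.85, adjusted p = 0.0204), and no other galectin call changed.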
